A study of Mus musculus with 4 samples.

Results

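The 5 genes described here encode ISG15, a small protein that resembles ubiquitin, and the enzymes that attach it to other proteins or take it off again. They were chosen by gene name from a deposited table of 34745 mouse genes, and each name matched 1 row. RNA had been sequenced from BMMs, primary bone marrow derived monocytes and macrophages of wild-type 8-week-old male C57BL/6 mice, which went through 12 h in medium free of FBS before RANKL was added at 100 ng/mL for 24 h. RANKL is the cytokine that turns such cells into osteoclasts. One group (RANKL+DI, 2 libraries) also received dimethyl itaconate (DI), a membrane-permeable itaconate derivative, and the other (RANKL+Veh, 2 libraries) received the DMSO vehicle, so that both groups had been exposed to RANKL and the effect of RANKL itself cannot be read from them. The labels give the DI dose as 20 mM and the methods of the study as 20 μM. The labels do not say whether the 2 libraries of a group came from separate mice or cultures, so p-values measure the spread between these libraries only.

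ISG15 is made as a precursor and is joined through its C-terminal glycine to lysines of target proteins, in a cascade like that of ubiquitin. UBA7 is the activating (E1) enzyme, UBE2L6 the conjugating (E2) enzyme, and in the mouse HERC6 is the main ligase (E3). USP18 is the protease that removes ISG15 from its targets, and it also binds the IFNAR2 chain of the type I interferon receptor and dampens its signal. All these genes are known as interferon-induced genes, and the ISG15 system is best known from antiviral defence in macrophages and other cells.

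All 5 genes had less RNA with DI than with vehicle in every pairing of libraries, and 4 of them passed the test. The modifier Isg15 and the protease Usp18 fell most, to 35.2% and 40.3% of their vehicle level. The ligase Herc6 and the E1 gene Uba7 fell by much less, to 71.3% and 78.9%. The E2 gene Ube2l6 stood at 73.5% and did not pass. These percentages come from edgeR's quasi-likelihood test with Benjamini-Hochberg adjustment over all 12590 tested genes, called at an adjusted p under 0.05. Of all tested genes, 7.7% were called lower with DI and 7.14% higher (14.8% in all). In 29.6% of them both DI libraries lay below both vehicle libraries, and in 58.6% the groups did not overlap in either direction. All 5 genes passed the filter on low counts.

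**Figure D1:**
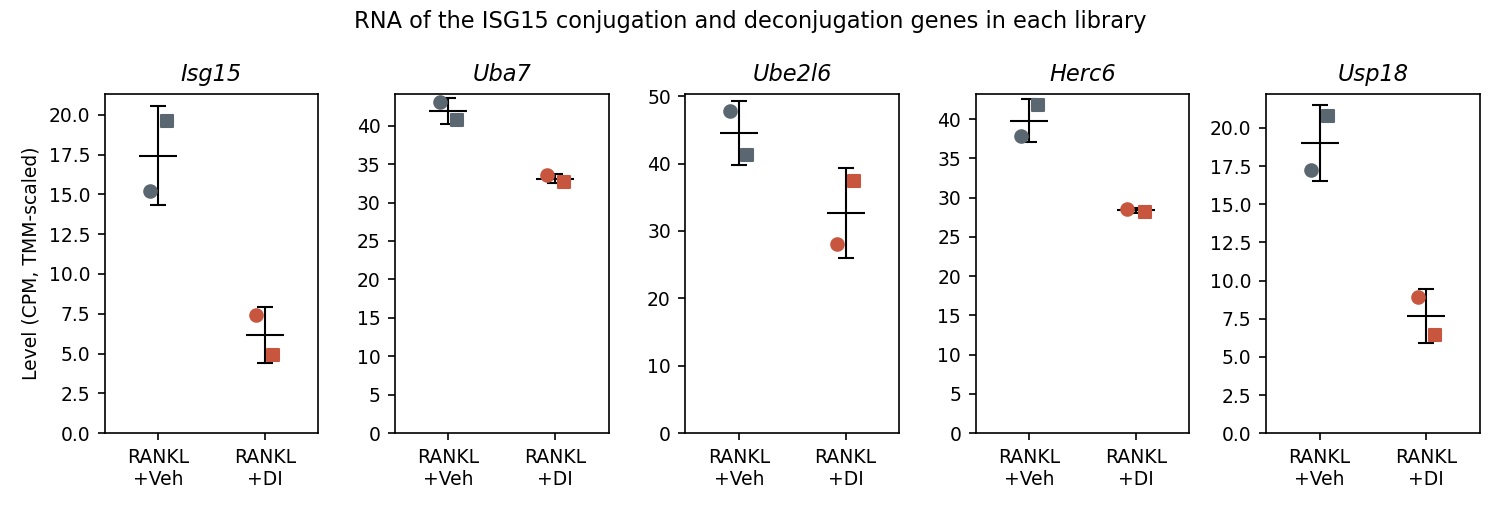
Level of each gene in each library in CPM (counts scaled to library size and TMM factor) on axes that start at 0, with circles for replicate 1, squares for replicate 2, and the group mean ± SD in black (n = 2). In every panel both RANKL+DI libraries lie below both RANKL+Veh libraries, with means of 6.15 against 17.4 CPM for Isg15. On the log2 scale the nearest libraries of the groups are farthest apart for Isg15 (1.04) and closest for Ube2l6 (0.14).

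Isg15 (ENSMUSG00000035692) lies on the minus strand of chromosome 4 from 156199424 to 156200818 (GRCm38) and has 2 exons in its single annotated transcript. Its counts were 284 and 327 in the vehicle libraries and 127 and 92 in the DI libraries. In CPM, counts relative to a library size adjusted by TMM factors, this was 15.2 and 19.6 CPM with vehicle, against 7.39 and 4.90 CPM with DI. The higher DI library thus lay below the lower vehicle library by 1.04 on the log2 scale, while libraries of the same group differed by up to 0.59. The log2 fold change was -1.51 (standard error 0.22, 95% interval -2.05 to -0.96, adjusted p = 0.00953, edgeR). Only 0.524% of the tested genes (66 genes) had a lower log2 fold change. A stretch of the Isg15 transcript (63.8% of it) has a copy in the processed pseudogene AC151275.1 at up to 95.2% identity, a gene not in the table, so reads shared with it make the level of Isg15 uncertain.

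The region before the start of Isg15 is shown because it carries the element through which interferon-activated factors are known to bind such genes. Interferon-stimulated response elements (ISRE) were searched as GAAA, any 2 bases and GAAA again, on both strands, in RefSeq windows (GRCm38.p6) that reach from 250 bases before to 50 bases after each gene's start. The bases below lie at chr4:156200855-156200966 on the minus strand, 148 to 37 bases before the RefSeq start, and are written 5′ to 3′ on the strand of the gene. Capitals mark matches to the ISRE or to its shorter core AANNGAAA on either strand.
Isg15: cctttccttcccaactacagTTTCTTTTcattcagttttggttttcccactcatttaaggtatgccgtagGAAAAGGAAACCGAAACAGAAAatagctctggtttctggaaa
The longer capital run holds 3 matches to the ISRE that overlap each other, beginning 78, 72 and 66 bases before the start. The isolated capitals nearer the 5′ end match the core alone, on the other strand.

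Of the 5 genes, 4 had such a window, and Usp18 had none. Among the 4, Isg15 was the one with a match to the ISRE, which 3.44% of all 32851 windows hold. Uba7 held 1 match to the core AANNGAAA, on the other strand and beginning 27 bases before its RefSeq start, and 23.9% of all windows hold that core. It is shown at chr9:107975529-107975558 on the plus strand for comparison with Isg15, in bases that GENCODE assigns to an exon of Uba7.
Uba7: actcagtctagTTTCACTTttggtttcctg
The windows of Ube2l6 and Herc6 held neither form. The gamma-activated site TTCNNNGAA, present in 8.30% of windows, was in none of the 4, and the antioxidant response element TGACNNNGC, present in 12.4%, occurred once, in Herc6 on the other strand 22 bases before the start. Over the 9220 tested genes with a window, 358 held the ISRE and 61 of these (17.0%, Isg15 among them) were called lower with DI, against 7.77% of the 8862 genes without it. The shares called higher were 6.15% and 7.30%. The shares called lower with and without the other motifs were 9.96% and 7.64% for the core, 9.27% and 8.03% for the gamma-activated site, and 8.22% and 8.12% for the antioxidant response element. A match of letters is a description and does not show a bound site, and the core was added to the search after the results had been seen.

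Usp18 (ENSMUSG00000030107), on the plus strand of chromosome 6 from 121245906 to 121270917, followed Isg15 closely. It had 322 and 346 counts with vehicle and 153 and 121 with DI, or 17.3 and 20.8 CPM against 8.91 and 6.45 CPM. The groups did not overlap, and the gap between their nearest libraries was 0.96 on the log2 scale. Its log2 fold change was -1.31 (standard error 0.18, 95% interval -1.76 to -0.86, adjusted p = 0.00776, edgeR). In both genes the higher library of each group was the same one, replicate 2 with vehicle and replicate 1 with DI, an order that Herc6 shared. Exons of Usp18 overlap the noncoding gene Gm44148 on the opposite strand over 4.44% of their length, and that gene had at most 2 counts in a library.

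The conjugating enzymes had higher counts and smaller differences. Uba7 (ENSMUSG00000032596, plus strand of chromosome 9 from 107975505 to 107984060) activates ISG15 as its dedicated E1. Its counts were 804 and 679 with vehicle and 576 and 613 with DI, which gave 43.1 and 40.7 CPM against 33.5 and 32.7 CPM. The 4 libraries were close to each other within their groups, at most 0.082 apart on the log2 scale, and the groups did not overlap. The log2 fold change was -0.34 (standard error 0.068, 95% interval -0.51 to -0.18, adjusted p = 0.0242, edgeR). This call did not hold when any 1 of the 4 libraries was left out (adjusted p from 0.0532 to 0.112, edgeR) or with the DESeq2 Wald test (adjusted p = 0.0579), and the adjusted p ranged from 0.00848 to 0.112 over the 16 alternatives. The gene model Gm20661 shares 3.48% of the Uba7 exons on the same strand and had at most 2 counts in a library.

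Ube2l6 (ENSMUSG00000027078, plus strand of chromosome 2 from 84798828 to 84810335) encodes the E2 that passes ISG15 to the ligase. It had 892 and 687 counts with vehicle and 481 and 702 with DI, or 47.9 and 41.2 CPM against 28.0 and 37.4 CPM. The DI libraries differed from each other by 0.42 on the log2 scale, and only 0.14 separated the higher of them from the lower vehicle library. Its log2 fold change was -0.44 (standard error 0.15, 95% interval -0.81 to -0.080, adjusted p = 0.107, edgeR), so the difference did not pass after adjustment. Without DI replicate 2 it was -0.67 and passed (adjusted p = 0.0155, edgeR), while without DI replicate 1 it was -0.25, and the adjusted p ranged from 0.0155 to 0.319 over the alternatives. Unlike Isg15, Usp18 and Herc6, Ube2l6 was higher in replicate 2 than in replicate 1 with DI and lower in replicate 2 with vehicle. Part of one Ube2l6 transcript (32.4%) has a copy at up to 95.1% identity in Gm17167, which had 0 counts in all libraries.

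Herc6 (ENSMUSG00000029798, plus strand of chromosome 6 from 57581000 to 57664632) encodes a HECT-type ligase. Its counts were 706 and 696 with vehicle and 491 and 529 with DI, which gave 37.9 and 41.8 CPM against 28.6 and 28.2 CPM. The groups did not overlap, and the DI libraries lay within 0.020 of each other on the log2 scale. The log2 fold change was -0.49 (standard error 0.076, 95% interval -0.67 to -0.30, adjusted p = 0.0112, edgeR). The transcript Gm45193 shares 13.7% of the Herc6 exons on the same strand and had 3 to 7 counts in a library where it was counted apart.

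**Figure D2:**
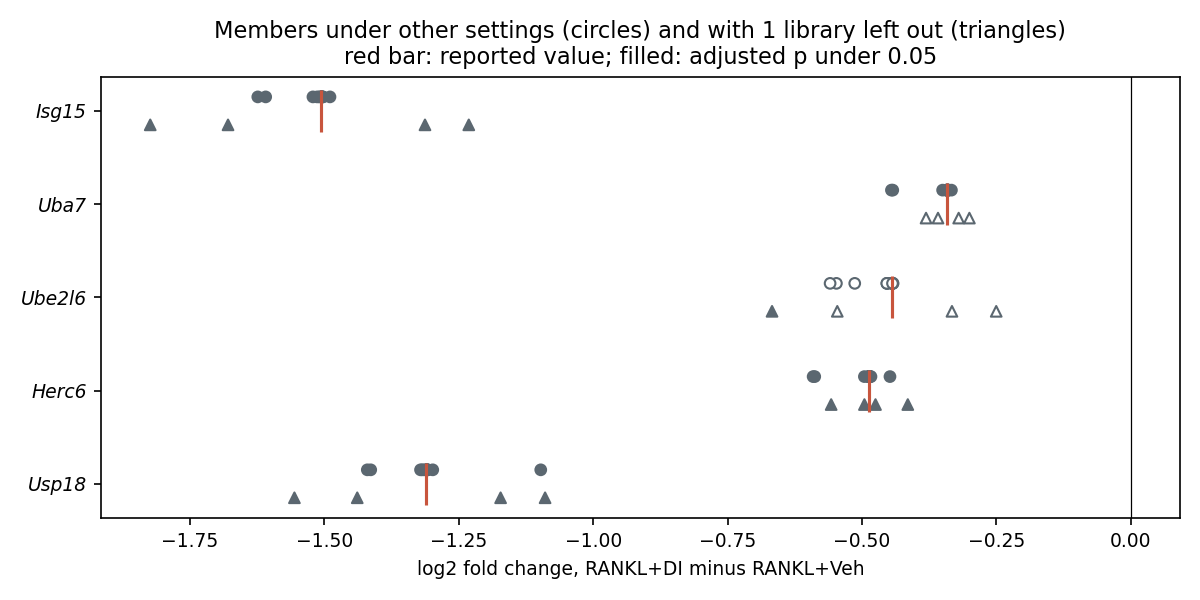
Log2 fold change of each gene (x axis, RANKL+DI minus RANKL+Veh) as reported (red bar), under 12 other settings (circles) and with each library left out in turn (triangles), filled where the adjusted p was under 0.05. Isg15, Usp18 and Herc6 are filled throughout, Uba7 loses the call whenever 1 library is left out, and Ube2l6 ranges from -0.67 to -0.25.

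Levels of different genes were compared per length, as TMM-scaled CPM per kilobase of exons in GENCODE M21. With vehicle, Isg15 (23.1 ± 4.10) and Ube2l6 (22.3 ± 2.35, SD, n = 2) stood highest on this scale and their libraries overlapped. Usp18 (6.82 ± 0.883) and Uba7 (6.27 ± 0.253) came next and overlapped too, with Herc6 (4.28 ± 0.295) below both. With DI, Ube2l6 (16.4 ± 3.33) stood above Isg15 (8.13 ± 2.33) in both libraries, Uba7 followed at 4.95 ± 0.0914, and Herc6 (3.06 ± 0.0299) and Usp18 (2.75 ± 0.623) shared the lowest place with overlapping libraries. The order depends on the gene lengths used. The deposited FPKM values rest on a length of 12341 bases for Uba7, longer than the 8556 bases from its start to its end, and on 3316 bases for Ube2l6 where the exons cover 1996. On deposited FPKM, Isg15 (20.9 and 26.9) lay above Ube2l6 (14.96 and 12.88) in both vehicle libraries. Isg15 was also above it in DI replicate 1 (9.41 against 8.13), and below it in DI replicate 2 (6.27 against 10.9). With vehicle, Usp18 (5.20 and 6.24) then lay above Herc6 (3.69 and 4.07), and Herc6 above Uba7 (3.62 and 3.42), without overlap. With DI, Uba7 (2.62 and 2.56) and Herc6 (2.59 and 2.56) overlapped, and Usp18 (2.49 and 1.81) lay below both.

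The amount of each enzyme's RNA relative to Isg15 RNA does not depend on the scaling of the libraries. The level of Uba7 was 0.320 and 0.235 times that of Isg15 with vehicle and 0.512 and 0.753 times with DI. For Ube2l6 the ratio was 1.19 and 0.796 with vehicle and 1.43 and 2.89 with DI, and for Herc6 it was 0.202 and 0.173 against 0.315 and 0.468. Relative to Isg15 the RNAs of the conjugating enzymes were thus more abundant with DI in every library, by 1.18 for Uba7, 1.07 for Ube2l6 and 1.04 for Herc6 on the log2 scale. These enzyme RNAs themselves fell with DI. Isg15 fell more, with a log2 fold change of -1.51, so a gene that did not change would have risen still further relative to it. The ratio of Usp18 to Isg15 stayed in a narrow range, 0.307 and 0.287 with vehicle and 0.326 and 0.356 with DI, a difference of 0.20 on the log2 scale. In none of the 4 ratios did libraries of the 2 groups overlap, but all 4 share Isg15, whose own groups did not overlap. Among all tested genes taken singly, 58.6% did not overlap, and that share was not computed for ratios to Isg15. A 2-sided exact permutation test gave p = 0.333 for each of them (adjusted p = 0.333), the smallest that 2 libraries against 2 can give, so this test could not have passed and says nothing on unequal change. The Ube2l6 difference rests most on single libraries, since it was 0.56 without DI replicate 2 and 1.57 without DI replicate 1.

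**Figure D3:**
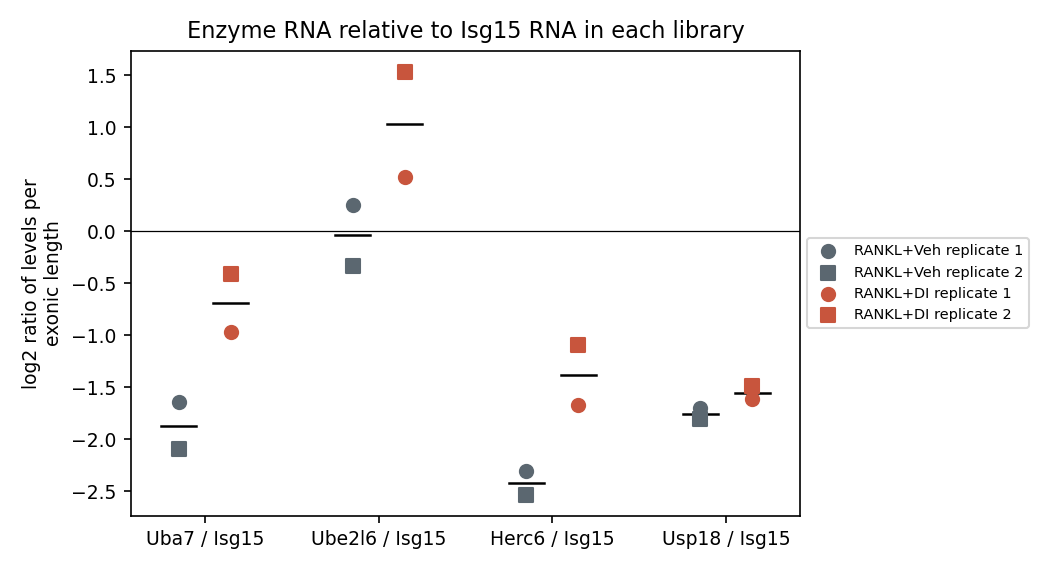
Log2 ratio of the level of each enzyme gene to that of Isg15, both per exonic length, in each library, with the group means as short bars (n = 2 libraries per group). The 3 conjugating enzyme genes sit higher relative to Isg15 in both RANKL+DI libraries, whereas the Usp18 points of both groups lie close together. Isg15 itself fell with DI, so a gene that did not change would sit higher too.

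Each of the 5 genes belongs to a family of ubiquitin-type genes that is mostly not linked to interferon, and the families were set beside it. Of the other 4 HERC genes tested, edgeR called 0 (0 at an unadjusted p under 0.05, and 0 with DESeq2 or limma-voom). Their log2 fold changes ran from -0.025 to 0.10, and Herc3, a close relative of Herc6, was at 0.10 (95% interval -0.057 to 0.26). Of the 9 other E1 genes tested, 1 was called lower, Sae1 of the SUMO E1 at -0.26, and 0 higher (0 also at an unadjusted p under 0.05 and with DESeq2). The call of a lower E1 gene was lost without DI replicate 1, vehicle replicate 1 or vehicle replicate 2, and 1 E1 gene was called higher without vehicle replicate 2. Uba1, the main E1 of ubiquitin, was at 0.0026 (95% interval -0.10 to 0.11) on a level of 92.3 per exonic kilobase with vehicle, far above Uba7. Of the 33 other Ube2 genes tested, 1 was called lower, Ube2c, an E2 of mitotic cyclin destruction, at -0.68, and 0 higher (4 at an unadjusted p under 0.05, 0 with DESeq2). Without DI replicate 1, 2 were called lower and 3 higher. Ube2l3, the closest relative of Ube2l6, had 18.02 and 17.76 CPM with vehicle and 18.05 and 18.23 CPM with DI, a log2 fold change of 0.020 (95% interval -0.20 to 0.24).

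Among the proteases, 42 other Usp genes were tested, of which 3 (7.14%) were called lower and 1 higher. Of all tested genes, 7.7% were called lower. The called genes were Usp21 (-0.54), Usp1 (-0.34), Usp10 (-0.31) and Usp47 (0.20). Usp18 had the lowest log2 fold change of all 43, and the next, Usp11 at -0.66, did not pass (adjusted p = 0.105, edgeR). In level per exonic length Usp18 was 21st of the 43 with vehicle and 31st with DI. Of 18 other tested ubiquitin-like and ubiquitin genes, 7 were called higher and 2 lower. The lower ones were Urm1, a modifier used in transfer RNA thiolation, at -0.99, and the ubiquitin and ribosomal fusion gene Rps27a at -0.42, whose many retrocopies could share its reads. The largest increase was that of Ubl5, at 0.39, and the others called higher included the ubiquitin gene Ubb and the autophagy modifiers Gabarap, Gabarapl1, Gabarapl2 and Map1lc3a. These counts depend on the setting. Of the 18 genes, 5 were called higher and 3 lower with library size only, and 4 were higher without DI replicate 2 or vehicle replicate 1. Of the Usp genes, 10 were called lower with library size only, 1 with DESeq2, with the replicate block or without either DI replicate, and 0 without either vehicle replicate, so most of the named Usp calls did not hold when a library was left out. The median log2 fold change was 0.094 over these 18 genes, -0.080 over the E1 genes, 0.020 over the E2 genes, -0.062 over the Usp genes and 0.0012 over all tested genes, against -0.49 over the 5 ISG15 genes. In the KEGG set of ubiquitin mediated proteolysis, as the authors assigned it, 127 genes were tested. Of these 10 (7.87%) were called lower, Uba7 among them, a share close to the 7.7% of all tested genes. In this set 0 were called higher (10 higher at an unadjusted p under 0.05, 0 higher with DESeq2), and its median log2 fold change was 0.0059. This set was chosen after the files had been seen, and 23 of it were lower with library size only but 3 without vehicle replicate 1. Without DI replicate 1, DI replicate 2 or vehicle replicate 2, 2, 2 and 3 of it were called higher.

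**Figure D4:**
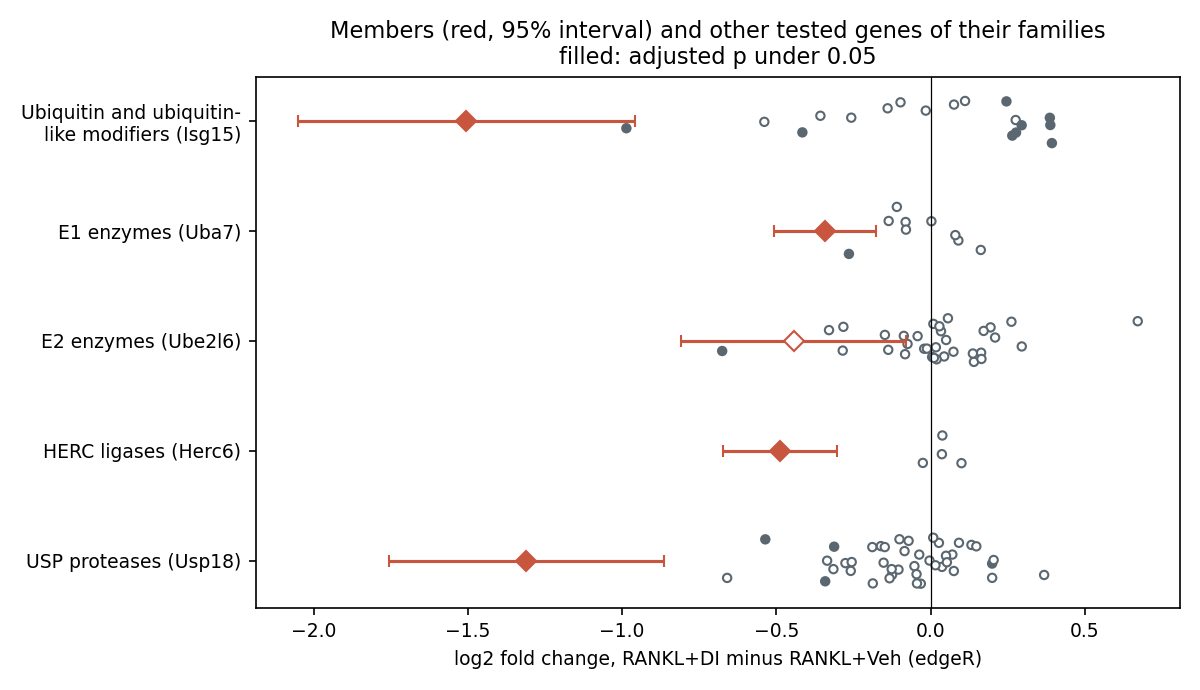
Log2 fold change (x axis, RANKL+DI minus RANKL+Veh) of each ISG15 gene (red diamond with its 95% interval) and of the other tested genes of its family (grey points, spread vertically for visibility), filled where the adjusted p was under 0.05. Isg15, Uba7, Herc6 and Usp18 lie to the left of every other gene of their row, and in the E2 row Ube2c alone lies left of Ube2l6.

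Genes outside the 5 whose products are reported to act on or with ISG15 or its enzymes moved in both directions. Of 12 listed, 11 were tested, and 3 (27.3%) were called lower and 3 higher, against 7.7% and 7.14% of all tested genes. The number called lower was 5 with library size only, 2 with DESeq2 and 1 without DI replicate 1 or vehicle replicate 1, while 2 or 3 were called higher throughout. Stat2, a carrier of the type I interferon signal to which USP18 also binds, fell from 82.4 and 90.1 CPM to 59.5 and 53.9 CPM, a log2 fold change of -0.61 (adjusted p = 0.00618, edgeR). Usp21, a protease with reported activity on ISG15, and Skp2, a ubiquitin ligase component that targets USP18, were at -0.54 and -0.51. Itgal and Itgb2, the 2 chains of the integrin LFA-1 that is known as a receptor of secreted ISG15, rose by 0.35 and 0.50, and the E3 ligase gene Arih1 by 0.35. Trim25, a ligase that can also use ISG15, had 154 and 321 CPM with vehicle and 301 and 152 CPM with DI. Its high libraries were vehicle replicate 2 and DI replicate 1, so its groups overlapped fully and its interval was wide (log2 fold change -0.067, 95% interval -1.09 to 0.95).

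The type I interferon receptor genes did not pass the test while several factors downstream of the receptor did. Ifnar2, whose product binds USP18, was at -0.081 (95% interval -0.20 to 0.037) and Ifnar1 at -0.0050 (95% interval -0.10 to 0.093). Of the 15 listed receptor, kinase, STAT, IRF and SOCS genes, all tested, 5 (33.3%) were called lower and 0 higher (1 higher at an unadjusted p under 0.05, 0 with DESeq2). Of all tested genes, 7.7% were called lower and 7.14% higher. With library size only, 7 of the 15 were called lower. Among the 5 called lower were Irf7 (-1.18), Socs3 (-0.99), Stat2 (-0.61) and Irf9 (-0.46). Irf7 went from 32.5 and 29.9 CPM to 12.6 and 14.8 CPM. The 20 listed interferon genes, Ifnb1, Ifng and 13 Ifna genes among them, had 0 counts in all 4 libraries, which allows up to 0.160 to 0.180 CPM each at 3 counts per library.

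The genes whose pattern over the 4 libraries was most like the mean of the 5 genes were found by the root mean square difference of centred log2 CPM, over 11003 other genes with an average log2 CPM over 1. The nearest were Cep85 (0.016), Dnm1 (0.018), Map2k3os (0.020), Mybl2 (0.025) and Pmepa1 (0.037), followed by AI506816, Timeless, Nup210, Slc16a1 and Ifitm3 (0.055). The 5 genes themselves lay farther from their own mean, between 0.17 (Herc6) and 0.39 (Isg15). The 10 genes had log2 fold changes from -0.89 to -0.77, a range that their choice by likeness to the mean set in advance. None of the 5 genes had a value in that range itself, and the likeness rests on 4 libraries.

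The whole table gives the frame for these values. The libraries held 16085692 to 19403480 counts, and replicates varied more than sampling alone gives (chi-square over its degrees of freedom 7.57 for DI, 7.74 for vehicle). Of the 12590 tested genes 969 were called lower and 899 higher, and when scaled by library size only, which moved the median log2 fold change of all genes to -0.10, 1932 and 548. In bulk RNA, fewer cells of a type and less RNA per cell cannot be told apart. Of the markers of the labelled cell type, Adgre1, Csf1r, Cd68 and Lyz2 each had at least 17037 counts in every library. Summed macrophage markers were at 22421 to 23265 CPM with vehicle and 28620 to 29414 CPM with DI. Of their 9 rows (8 names, since Itgam has 2), 5 were called higher and 2 (22.2%) lower, against 7.14% and 7.7% of all tested genes.

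Of 10 osteoclast markers, 8 were tested. With DI, 5 (62.5%) were called lower, among them Ocstamp (-2.52), Mmp9 (-1.64) and Acp5 (-0.95), and 2 higher, Itgb3 (0.56) and Atp6v0d2 (0.27). Of all tested genes, 7.7% were called lower and 7.14% higher. The sum of the 10 markers was 740 to 763 CPM with vehicle and 714 to 730 CPM with DI. Of this, Atp6v0d2 alone made up 417 to 427 and 509 CPM, and Calcr was at 0 counts. Markers of plasmacytoid dendritic cells, a strong source of interferon, summed to 55.7 to 63.2 CPM with vehicle and 63.8 to 64.4 CPM with DI, mostly from Tcf4, Il3ra and Runx2, with Siglech and Klk1 at 0. Those of conventional dendritic cells were at 412 to 422 and 450 to 491 CPM, nearly all of it Itgax, with Cd209a at 0 and Flt3 at no more than 1 count. B cell markers rose from 10.7 to 11.8 CPM with vehicle to 21.3 to 23.5 CPM with DI through Ighm (log2 fold change 1.03), with the defining marker Pax5 at 0. T and NK cell markers reached at most 0.757 CPM in a library, erythroid markers 0.268, mast cell and basophil markers 1.57, neutrophil markers 11.1, and stromal and endothelial markers 47.3, and of all these lists edgeR called 0 genes (1 neutrophil gene was higher at an unadjusted p under 0.05, and 0 were called with DESeq2). The part of any of these cell types in the ISG15 results was not tested.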

How the data were processed

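RNA of 4 libraries was compared, 2 of RANKL+DI and 2 of RANKL+Veh, grouped by their titles. The authors deposited unnormalized read counts for each gene and FPKM values, which equalled count over gene length and library total (largest relative deviation 0.000261). Another deposited table repeats both with KEGG terms. The labels name the build GRCm38 (mm10). The aligner, counter and annotation are not given in the sources used here. Gene lengths implied by the FPKM exceeded the exons of GENCODE M21 by over 1% for 60.0% of 18186 genes, so levels per length used the GENCODE exons.

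Counts were analysed with edgeR 4.0.16 in R 4.3.3 (TMM, default filter on low counts, quasi-likelihood fit, condition as the only term, prior count 0.125, Benjamini-Hochberg adjustment). Standard errors come from the log2 fold change and F statistic, with 2 residual degrees of freedom before moderation. The depth of 16085692 to 19403480 counts puts 3 counts at 0.160 to 0.180 CPM, and such floors cover counting error only. Alternatives used DESeq2 1.42.0, limma 3.58.1, other scalings and filters, FPKM, a replicate block and each library left out in turn. Transcripts were compared with BLAST+ 2.17.0, and ratios with SciPy 1.17.1. The fit was tested on 3 draws of simulated counts with 200 changed genes each. It recovered 39% of the genes changed by 0.5 on the log2 scale and 88.3% of those changed by 1. Of its calls, 4.30% were false. In the draws the variation between replicates was set by the level of a gene alone, not gene by gene, so these rates need not hold for the real data. Many changes of the size seen for Uba7, Ube2l6 and Herc6 would thus be missed in such draws.

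The members and lists were chosen with earlier results of these data known. The named genes were the members, their closest relatives, up to 3 called genes per list and the 10 genes most like the members. Other partner, signalling and marker genes, further called ubiquitin and ubiquitin-like genes, Usp11 and Usp47 were named after their values were seen. Promoter windows are from RefSeq (GRCm38.p6).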

Additional observations from a re-analysis of the deposited data

How the results depend on the processing

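All 5 genes kept their direction under the 16 alternatives, and Isg15, Usp18 and Herc6 kept their call in each (adjusted p at most 0.0350, 0.0303 and 0.0477). Uba7 did not pass with the DESeq2 Wald test (-0.34, adjusted p = 0.0579) or with any 1 library left out (-0.38 to -0.30), and Ube2l6 passed without the filter on low counts (-0.44, adjusted p = 0.0391) and without DI replicate 2 (range over the left-out libraries -0.67 to -0.25). The adjusted p-values over all alternatives were 0.00848 to 0.112 for Uba7 and 0.0155 to 0.319 for Ube2l6. Between 3 and 4 of the genes were called with 1 library left out. The replicate numbers do not mark a shared mouse or batch in the labels, and same-numbered libraries did not deviate together (r = -0.030 over 12590 genes). With the replicate block 1389 genes were called in place of 1868, and the calls of the 5 genes did not change (Isg15 -1.51, Uba7 -0.34, Ube2l6 -0.45, Herc6 -0.49, Usp18 -1.31).

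Over all genes, 548 were called higher and 1932 lower with library size only, 536 and 1674 with log2(FPKM + 1), and 529 and 1674 with log2(FPKM + 0.01). With 1 library left out, 1087 to 1394 genes were called, 558 to 682 higher and 529 to 712 lower, the lowest without vehicle replicate 2 (1087) and vehicle replicate 1 (1120). The cause was not tested. The 4 ratios to Isg15 kept their direction with each library left out, where that of Ube2l6 ran from 0.56 to 1.57. Of 544 values of a list's count under an alternative, 60 lay over 1.5 times from the reported count. Depth limits what can be said of the interferon genes, since a level under 0.160 to 0.180 CPM cannot be told from 0 here.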
